A study of Mus musculus with 8 samples.

Results

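The IL12 cytokine family is built from the subunits encoded by Il12a, Il12b, Il23a, Il27 and Ebi3. These 5 genes are described together with Il15, which encodes the cytokine IL15, and Il15ra, which encodes its high-affinity receptor chain. The genes were chosen by name, with earlier results of these data known, and all 7 were among the 23143 gene symbols of the count table. RNA had been sequenced from RAW264.7 cells, an established mouse macrophage line. The cells were untreated (0 min) or had received 100 ng/ml LPS, the lipopolysaccharide of Gram-negative bacteria, for 15 to 120 min (in steps of 15 min, with the last from 90 to 120 min). Only 1 library was made at each time, and differences in time are therefore without a check by replicates. The labels describe the RNA as total RNA and its fraction as cytoplasmic.

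Members of the IL12 family are secreted as pairs of subunits that share chains. IL12 pairs p35 (Il12a) with p40 (Il12b), IL23 pairs p19 (Il23a) with the same p40, and IL27 pairs p28 (Il27) with EBI3 (Ebi3). They are released mainly by activated macrophages and dendritic cells and act on T cells and NK cells through receptors that use JAK kinases and STAT factors. IL15 is held on the surface of the producing cell by IL15 receptor alpha (Il15ra) and is presented from there to NK cells and CD8 T cells, which carry the other receptor chains.

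Total counts ranged from 100250892 at 75 min to 159077286 at 120 min. Counts at Rn45s, the gene of the ribosomal RNA precursor, made up 8.18 to 9.11% of the total at 0, 30, 60 and 120 min. At 15, 45, 75 and 90 min they made up 12.96 to 20.53%, so the libraries fall into 2 sets that alternate over most of the time course. Whether these counts came from the precursor or from mature ribosomal RNA was not tested. Counts were divided by median-of-ratios size factors, which ranged from 0.710 to 1.234, and are called normalized counts. Scaling by total counts instead lowers every log2 ratio to 0 min by between 0.028 (30 min) and 0.33 (75 min). The 8 macrophage marker genes (Adgre1, Cd68, Csf1r, Itgam, Lyz2, Cd14, Fcgr1 and Mertk) summed to 5476 to 6689 cpm (counts per 1e6 counts of the library), with Mertk at no more than 2 counts in any library. The summed markers of dendritic cells stood at 5.42 to 11.1 cpm with Cd209a at 0, those of T cells at 0.141 to 0.244 cpm with Cd3g at 0, and those of B cells at 0.180 to 0.401 cpm. NK cell markers reached at most 0.0153 cpm with Ncr1 and Klrb1c at 0, and fibroblast markers at most 0.00763 cpm with Col1a1 and Col1a2 at 0.

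Many cytokine mRNAs carry the pentamer AUUUA in the 3′ untranslated region (3′ UTR), which proteins of the tristetraprolin family can bind to promote decay of the mRNA. All 7 genes had at least 1 AUUUA in their 3′ UTR, as had 67.3% of the 11275 genes that had an mRNA accession, a 3′ UTR and on average 10 or more normalized counts per library. The 30 bases richest in the pentamer are shown for each gene, because the members differ in how many pentamers lie side by side: 2 to 4 in Il12a, Il12b, Il23a, Il27 and Il15ra, and 1 in Ebi3 and Il15. They were read from GRCm38 with GENCODE vM21 transcripts, are written 5′ to 3′ on the strand of the gene, and have ATTTA, the DNA form of the pentamer, in capitals.
Il12a (chr3:68698434-68698463, plus strand): gcctATTTAtATTTATTTAttttctATTTA
Il12b (chr11:44413473-44413502, plus strand): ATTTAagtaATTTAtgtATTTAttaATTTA
Il23a (chr10:128296187-128296216, minus strand): agtatagatgatggttATTTAttctATTTA
Il27 (chr7:126589090-126589119, minus strand): ccagatATTTAtttcttggatATTTATTTA
Ebi3 (chr17:55956959-55956988, plus strand): ggtgcggggctttgtgaactttgtgATTTA
Il15 (chr8:82331704-82331733, minus strand): acttatttttgcttgcttatttttaATTTA
Il15ra (chr2:11733844-11733873, plus strand): agtgtatATTTAcatatacATTTAtATTTA
Il27 had the densest 3′ UTR of the 7, with 5 pentamers in 285 bases (17.5 per kb), a density above that of 99.8% of the 11275 genes. Il12a followed with 6 in 497 bases (12.1 per kb), Il23a with 6 in 657 bases (9.13 per kb) and Il12b with 6 in 797 bases (7.53 per kb), each above at least 97.8% of the genes. Il15ra had 5 in 1068 bases (4.68 per kb), while Ebi3 had 1 in 245 bases (4.08 per kb) and Il15 had 1 in 282 bases (3.55 per kb). The median of the 11275 genes was 1.25 per kb. These are matches of letters, and binding of a protein was not measured.

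During the 2 h of LPS the 7 genes took different courses. Il23a was called higher than at 0 min from 30 min on, Il27 from 75 min on and Ebi3 at 120 min, while Il15ra was called lower from 75 min on. Il15 was not called at any time, and Il12a and Il12b had at most 1 read in any library. A gene was called between 2 libraries where the log2 ratio of normalized counts was beyond 0.5 and the unadjusted p-value of an exact negative binomial test was under the limit of 0.05. This call compares 2 libraries and not 2 conditions, so no p-value is printed. Ratios carry an exact conditional binomial 95% interval, which covers counting error only.

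At 15 min none of the 7 genes was called, where 0.265% of the 16967 genes with at least 1 count were called higher and 0.147% lower. Only Il23a was called higher at 30, 45 and 60 min, against 1.04%, 3.42% and 3.14% of all genes with a count. At 75 and 90 min 2 of the 7 were called higher (Il23a and Il27), against 4.3% and 5.24%. At 120 min 3 were called higher (Il23a, Il27 and Ebi3), against 7.05%. No member was called lower at 30, 45 or 60 min (0.183%, 1.36% and 2.16% of all genes). Il15ra was the 1 gene called lower at 75, 90 and 120 min, against 3.13%, 4.0% and 6.18%.

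**Figure D1:**
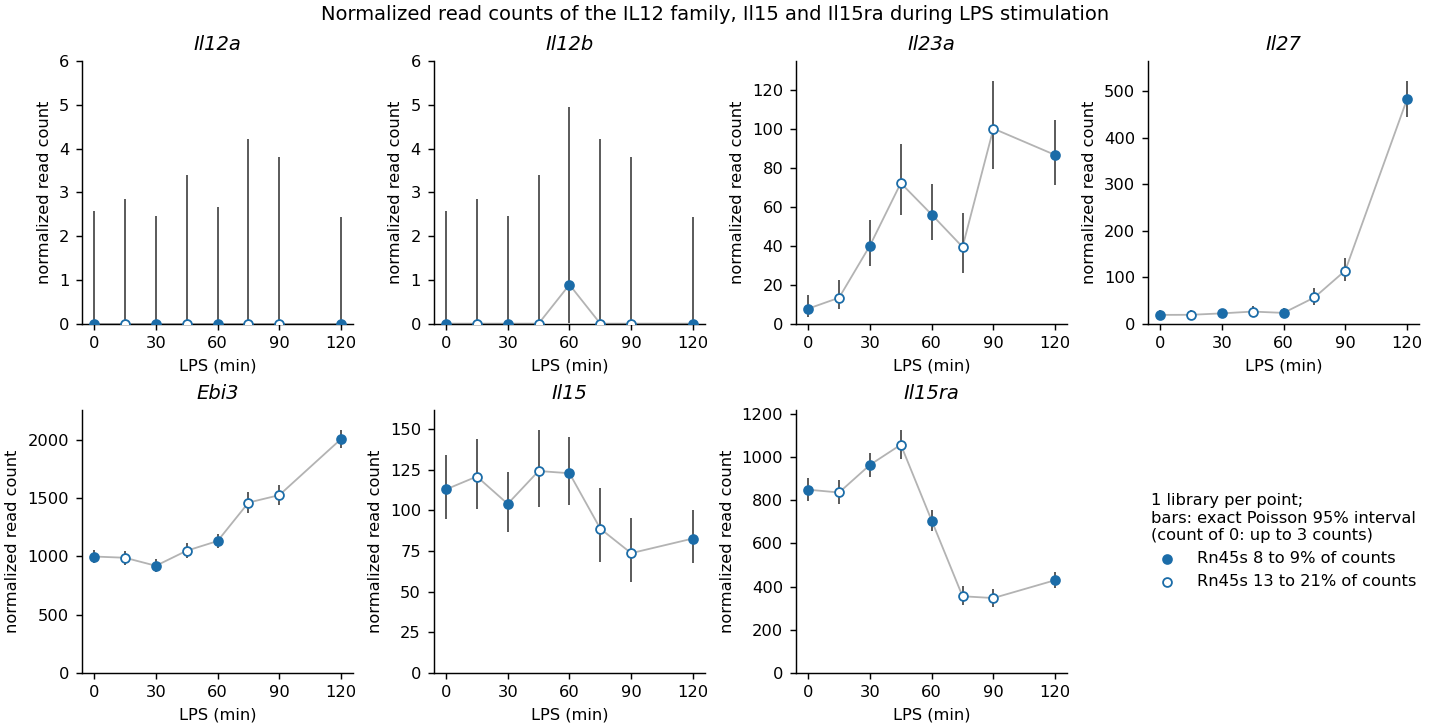
Normalized read counts (y axis) of the 7 genes against minutes of LPS (x axis), with 1 library per point, an exact Poisson 95% interval as the bar (for a count of 0, up to 3 counts) and open points for the libraries with 12.96 to 20.53% Rn45s. Il27 went from 18.8 at 0 min to 483.0 at 120 min, Il15ra from 849.5 to 429.5, and Il12a stayed at 0.

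Il12a and Il12b, the p35 and p40 subunits of IL12, were at the limit of detection in every library. Il12a (chr3:68690644-68698547 in GRCm38) had 0 counts in all 8 libraries. Il12b (chr11:44400063-44414033) had 1 count, at 60 min, and 0 counts at the other time points. Over the 1006657109 counts of the 8 libraries together, a count of 0 allows 3 counts, which corresponds to 0.00298 cpm. Per length, this is at most 0.00227 rpkm for Il12a (counts per kb of unique transcript sequence, scaled as cpm). In single libraries the limit lay between 0.0144 and 0.0228 rpkm for Il12a and between 0.0096 and 0.0152 rpkm for the libraries without an Il12b read. The 1 read of Il12b equals 0.00378 rpkm at 60 min (exact Poisson 95% interval 9.58e-05 to 0.0211). By exact match in GENCODE vM21, both genes have all their 58-base sequences to themselves (1312 in Il12a and 1965 in Il12b). The counting used RefSeq transcripts and allowed mismatches, so whether reads were left out as shared was not tested. Induction of p40 or p35 mRNA within 120 min was not detectable at this depth.

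Il23a (chr10:128296139-128298752, minus strand), the p19 subunit of IL23, was the first of the 7 genes to be called and the 1 called at 30 min. Its counts were 9, 14, 49, 64, 63, 28, 79 and 107 at 0 to 90 min in 15 min steps and at 120 min. As normalized counts these were 7.70, 13.3, 40.1, 72.3, 56.1, 39.4, 100.3 and 86.7. The 6 libraries from 30 min on all lay above those of 0 and 15 min, with a lower value at 75 min between higher ones. Relative to 0 min, Il23a was 1.73-fold higher at 15 min with an interval that includes no change (0.698 to 4.53), and was not called. It rose 5.21-fold at 30 min (2.53 to 12.1), 9.39-fold at 45 min (4.65 to 21.5), 7.29-fold at 60 min (3.60 to 16.7) and 5.12-fold at 75 min (2.35 to 12.3). The ratio was 13.0 at 90 min (6.53 to 29.5) and 11.3 at 120 min (5.72 to 25.3). The intervals are wide because the 0 min value rests on 9 reads, and the call at 30 min was lost with Benjamini-Hochberg adjustment.

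Between neighbouring time points Il23a was called in 2 steps. It rose 3.01-fold from 15 to 30 min (1.64 to 5.91) and 2.54-fold from 75 to 90 min (1.63 to 4.07). The lower values between 45 and 75 min were not called, at a ratio of 0.776 from 45 to 60 min (0.539 to 1.12) and 0.703 from 60 to 75 min (0.434 to 1.11). The 75 min library has the largest share of Rn45s, and its part in the lower value was not tested. In the 4 libraries with 8.18 to 9.11% Rn45s, Il23a stood at 7.70, 40.1, 56.1 and 86.7 normalized counts at 0, 30, 60 and 120 min, and each later value is higher than the one before. Of these steps the one from 0 to 30 min was called, while the ratios from 30 to 60 min (1.40) and from 60 to 120 min (1.55, interval 1.12 to 2.15) were not. Per length Il23a amounted to 0.0527 rpkm before LPS and 0.516 rpkm after 120 min, so the mRNA remained rare throughout. With p40 mRNA at the limit of detection, p19 was the single IL23 subunit whose mRNA was measured above it.

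**Figure D2:**
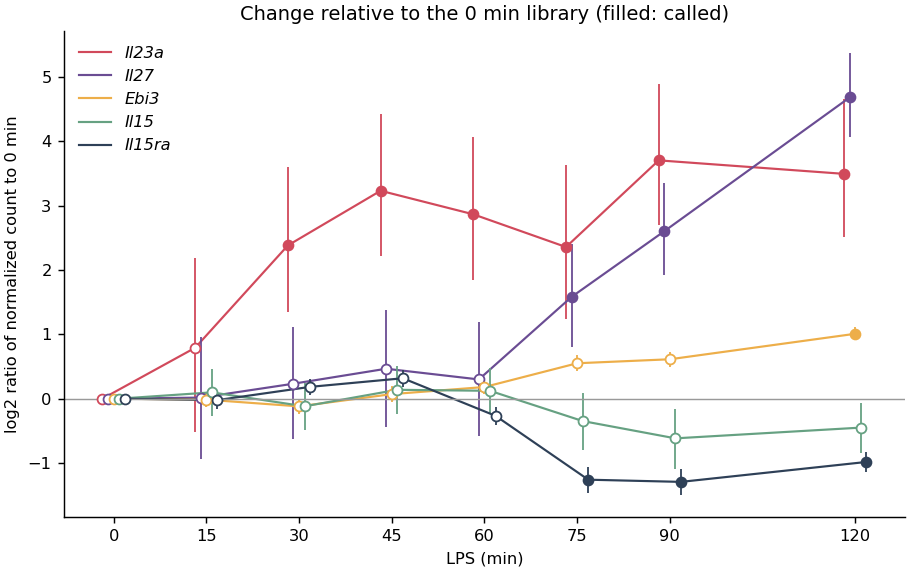
Log2 ratio of normalized counts to the 0 min library (y axis) against minutes of LPS (x axis) for the 5 genes with enough counts, with exact conditional binomial 95% intervals as bars and filled points where the pair of libraries was called. Il23a is filled from 30 min on, Il27 and Il15ra from 75 min on and Ebi3 at 120 min, while the points of Il15 are all unfilled.

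Il27 (chr7:126589010-126594941, minus strand), the p28 subunit of IL27, had the highest ratio to 0 min of the 7 genes at 120 min. Its counts were 22, 20, 27, 23, 26, 40, 90 and 596 from 0 to 120 min. Normalized counts were 18.8, 19.0, 22.1, 26.0, 23.2, 56.3, 114.3 and 483.0. The first 5 libraries lay between 18.8 and 26.0, and each of the last 3 lay above all earlier ones. Il27 had reached 4.79% of its 120 min value after 60 min, 11.7% after 75 min and 23.7% after 90 min. The ratios to 0 min at 15, 30, 45 and 60 min were 1.01, 1.17, 1.38 and 1.23, none of them called. Il27 rose 2.99-fold at 75 min (1.74 to 5.29), 6.07-fold at 90 min (3.78 to 10.2) and 25.7-fold at 120 min (16.8 to 41.3), a log2 ratio of 4.68. The call at 75 min was lost with the edgeR trend of the dispersion and with Benjamini-Hochberg adjustment. The interval at 120 min overlaps that of Il23a.

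The rise of Il27 was spread over all 3 late steps, and each of them was called. The ratio was 2.43 from 60 to 75 min (1.45 to 4.15), 2.03 from 75 to 90 min (1.38 to 3.02) and 4.23 from 90 to 120 min (3.38 to 5.34). The step from 90 to 120 min was called higher for 0.831% of all genes with a count. Between the 60 and 120 min libraries, whose Rn45s shares were 8.27% and 9.11%, Il27 was 20.9-fold higher at 120 min (14.1 to 32.2). In that comparison 3.34% of genes were called higher. Exons of Il27 overlap those of Apobr on the opposite strand, and 95.2% of the 58-base sequences of Il27 are unique to it. Apobr had 5243 counts at 0 min and 6604 at 120 min. The library kit kept the strand, but the counting is not stated to have used it. Without the strand, reads of the 2 genes would be confused in the sequences they share, which the unique part leaves out. Whether other reads from the opposite strand entered the Il27 count was not tested.

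Ebi3 (chr17:55952640-55957022, plus strand), the partner of p28 in IL27, was abundant before stimulation and was called only at 120 min. Its counts were 1168, 1039, 1123, 929, 1272, 1039, 1203 and 2480. Normalized counts were 999.2, 988.7, 919.6, 1049.3, 1132.6, 1463.1, 1527.3 and 2009.9. The first 4 libraries lay within 919.6 and 1049.3, and from 45 min on each library lay above the one before. Relative to 0 min, Ebi3 stood at 1.13 after 60 min (1.05 to 1.23), 1.46 after 75 min (1.35 to 1.59) and 1.53 after 90 min (1.41 to 1.66). These 3 intervals lie above 1, but none of the pairs was called. The log2 ratio at 60 min (0.18) is under the limit of 0.5, while those at 75 and 90 min (0.55 and 0.61) are beyond it and missed the p-value limit. Ebi3 rose 2.01-fold at 120 min (1.88 to 2.16), a log2 ratio of 1.01, and 1.77-fold from 60 to 120 min (1.66 to 1.90). Under scaling by total counts the log2 ratio at 120 min was 0.81 and was not called, and under Benjamini-Hochberg adjustment the call was lost as well. Exons of Ebi3 overlap those of Gm16712 on the opposite strand, and 85.4% of its 58-base sequences are unique to it.

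Per length, the mRNA levels of both IL27 subunits moved closer together during stimulation. Ebi3 stood at 9.51 rpkm at 0 min (8.97 to 10.1) and 16.6 rpkm at 120 min (16.0 to 17.3). Il27 stood at 0.183 rpkm at 0 min (0.115 to 0.277) and 4.08 rpkm at 120 min (3.76 to 4.42). The level of Ebi3 was thus 52.0 times that of Il27 at 0 min (34.2 to 83.3) and 47.9 times at 60 min (32.6 to 73.7). It was 25.4 times that of Il27 at 75 min (18.6 to 35.8), 13.1 times at 90 min (10.6 to 16.4) and 4.08 times at 120 min (3.73 to 4.47). The intervals at 75, 90 and 120 min do not overlap each other. Since both mRNAs come from the same library, the choice of the library scale does not enter this ratio, although it depends on the transcript lengths used. The order of Il27 and Il23a in these levels changed over time. Il27 was at 3.47 times the level of Il23a at 0 min (1.54 to 8.56), at 0.510 times at 45 min (0.302 to 0.833) and at 7.91 times at 120 min (6.43 to 9.81).

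**Figure D3:**
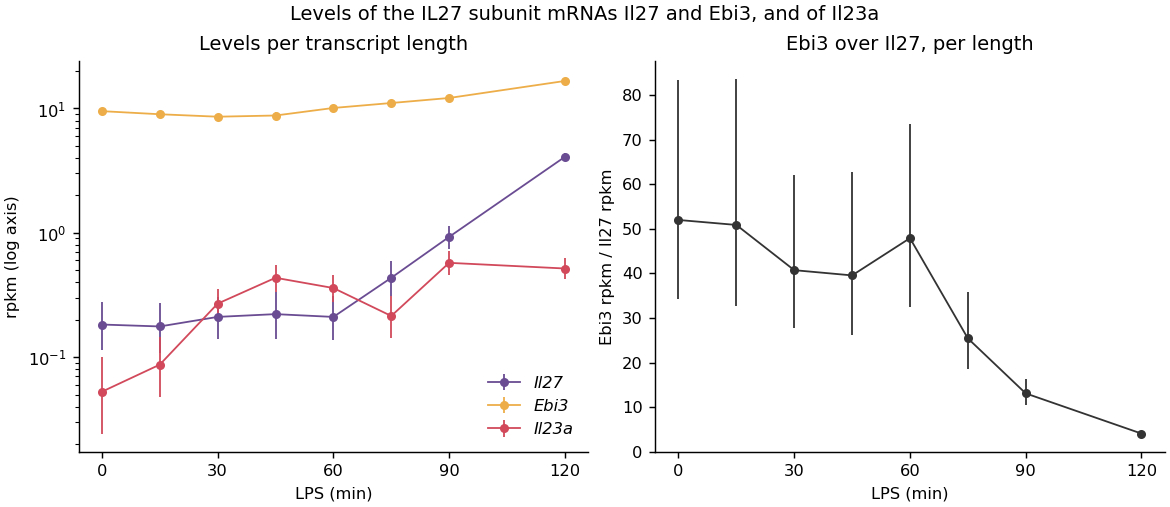
Left, levels in rpkm (log axis) of Il27, Ebi3 and Il23a against minutes of LPS, with exact Poisson 95% intervals; right, the ratio of Ebi3 to Il27 in rpkm with exact conditional binomial 95% intervals, 1 library per point. The ratio went from 52.0 at 0 min to 4.08 at 120 min.

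Il15 (chr8:82331632-82403222, minus strand) was not called in any pair with the 0 min library. Its counts were 132, 127, 127, 110, 138, 63, 58 and 102. Normalized counts were 112.9, 120.9, 104.0, 124.2, 122.9, 88.7, 73.6 and 82.7. The 3 libraries from 75 min on were the lowest of the 8. The ratio to 0 min was 0.786 at 75 min (0.572 to 1.07), 0.652 at 90 min (0.470 to 0.894) and 0.732 at 120 min (0.560 to 0.955). The last 2 intervals lie below 1 for counting error alone. Within the libraries with 8.18 to 9.11% Rn45s, the ratio of 120 to 60 min was 0.673 (0.516 to 0.875) and was not called. Per length, Il15 stood at 0.844 rpkm at 0 min (0.706 to 1.0) and 0.537 rpkm at 120 min (0.438 to 0.652).

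Il15ra (chr2:11705290-11734317, plus strand), the chain that presents IL15, was the 1 member called lower, and the drop fell between 45 and 75 min. Its counts were 993, 879, 1178, 937, 793, 252, 273 and 530, summed over 9 transcript accessions. Normalized counts were 849.5, 836.4, 964.6, 1058.3, 706.1, 354.9, 346.6 and 429.5. The 3 libraries from 75 min on lay far below the 5 earlier ones, and the 45 min value was the highest. Relative to 0 min, Il15ra stood at 1.14 at 30 min (1.04 to 1.24), 1.25 at 45 min (1.14 to 1.36) and 0.831 at 60 min (0.756 to 0.913), and these pairs were not called. Il15ra fell to 0.418 of its 0 min value at 75 min (0.362 to 0.480), 0.408 at 90 min (0.356 to 0.467) and 0.506 at 120 min (0.454 to 0.562), the last being a log2 ratio of -0.98. The call at 120 min was lost with the dispersion trend of edgeR, with Benjamini-Hochberg adjustment and with a log2 limit of 1. In bulk RNA, fewer cells with an mRNA and less mRNA per cell cannot be told apart.

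Among neighbouring time points, the step of Il15ra from 60 to 75 min was called, at a ratio of 0.503 (0.434 to 0.580). Of all genes with a count, 0.489% were called lower in that step. The step from 45 to 60 min was not called at a ratio of 0.667 (0.606 to 0.734), and the value at 120 min was 1.24 times that at 90 min (1.07 to 1.44), also not called. The libraries of 75 and 90 min have more Rn45s than that of 60 min. Between the 60 and 120 min libraries, which are alike in this respect, the ratio was 0.608 (0.544 to 0.680). It was not called, where 3.44% of genes were called lower. The level per length was 2.96 rpkm at 0 min (2.78 to 3.15), 3.29 rpkm at 30 min and 1.30 rpkm at 120 min (1.19 to 1.42). Il15ra was 3.51 times as abundant per length as Il15 at 0 min (2.92 to 4.24), 1.86 times at 75 min (1.41 to 2.50) and 2.42 times at 120 min (1.96 to 3.02). These ratios depend on the transcript lengths used, and the intervals do not cover this. The length of Il15ra was 2561 unique 58-base sequences pooled over 9 transcripts, of which the longest has 1936 bases. Over the longest transcript, Il15ra stood at 3.91 rpkm and Il15 at 0.805 rpkm at 0 min, so the ratio is higher on that length.

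By the rule that finds the first maximum or minimum of each course over all 28 pairs of libraries, Il23a had its first maximum at 90 min, Il27 and Ebi3 theirs at 120 min, and Il15ra its first minimum at 90 min. No extremum was found for Il12a, Il12b or Il15. Of all genes with a count, 7.28% had a first maximum at or after 60 min and 7.26% a first minimum at or after 60 min. Before 60 min, 1.64% had a first maximum and 0.855% a first minimum, and no member was among them. For Il23a this late maximum stands beside a first call at 30 min.

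The gene whose course was most like that of Il15ra was Irf1, a transcription factor of the interferon response that is known to act on both Il15 and Il15ra. Over the 8 libraries the Pearson correlation of log2(normalized count + 1) was 0.996, the highest among the 10491 other genes that averaged 100 or more normalized counts. On normalized counts it was 0.992, again the highest, and Spearman's coefficient was 0.976, at rank 3 in a tie with 10 other genes. Normalized counts of Irf1 were 1684, 1886, 2356, 2390, 1388, 384.4, 368.2 and 484.7 from 0 to 120 min. On normalized counts Irf1, like Il15ra, was highest at 45 min and lowest at 90 min. These times rest on small differences, as Il15ra at 90 min was 0.977 times its 75 min value (0.820 to 1.16). Scaled by total counts, Il15ra was highest at 30 min (8.44 cpm, beside 8.29 at 45 min). On that scale it was lowest at 75 min (2.51 cpm, beside 2.58 at 90 min). The ratio of Irf1 to 0 min was 0.824 at 60 min, 0.228 at 75 min (0.200 to 0.259) and 0.288 at 120 min (0.262 to 0.315). At 75 and 120 min these intervals lie below those of Il15ra. The points of such a correlation share library depth and the Rn45s share, and 8 libraries of 1 time course are not replicates.

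**Figure D4:**
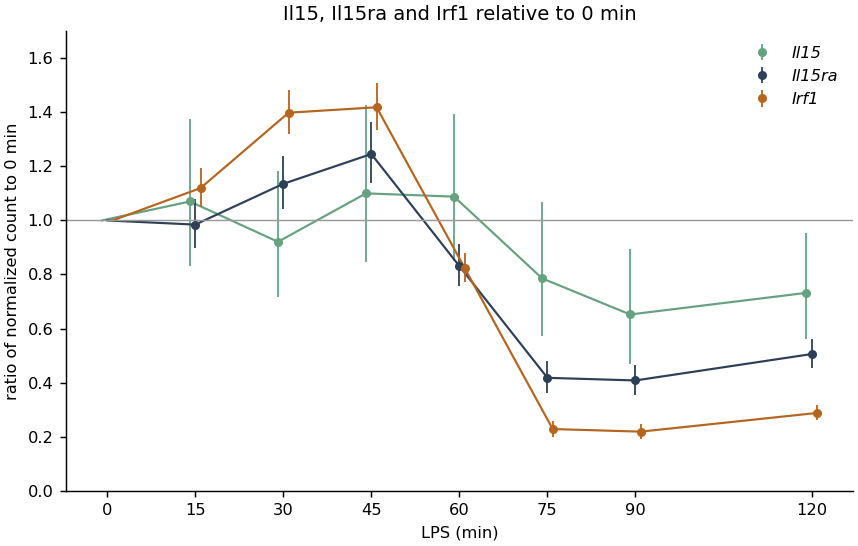
Ratio of normalized counts to the 0 min library (y axis) for Il15, Il15ra and Irf1 against minutes of LPS (x axis), 1 library per point, with exact conditional binomial 95% intervals. Il15ra stands at 0.418 and Irf1 at 0.228 at 75 min, while the interval of Il15 at 75 min includes 1.

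The promoter of Il15ra was the only one of those examined that held a motif searched for. The bases at its start 2 are printed, while start 1, which held both motifs, is described in words. Promoters were taken from RefSeq (GRCm38.p6) as 250 bases before to 50 bases after a transcription start. They were present for Il12a (2 starts), Il12b, Ebi3 and Il15ra (2 starts), and those of Il23a, Il27 and Il15 were not analysed here. The motifs were GGGANNTTC, a site of the NF-kB type, and GAAANNGAA, a site of the type bound by interferon regulatory factors, both searched on both strands. Of 32851 promoters, 3.942% held the former and 8.56% the latter. The second Il15ra start (chr2:11705462-11705761, plus strand) held GAAANNGAA on the plus strand, which begins 30 bases after the start and is in capitals.
Il15ra, start 2: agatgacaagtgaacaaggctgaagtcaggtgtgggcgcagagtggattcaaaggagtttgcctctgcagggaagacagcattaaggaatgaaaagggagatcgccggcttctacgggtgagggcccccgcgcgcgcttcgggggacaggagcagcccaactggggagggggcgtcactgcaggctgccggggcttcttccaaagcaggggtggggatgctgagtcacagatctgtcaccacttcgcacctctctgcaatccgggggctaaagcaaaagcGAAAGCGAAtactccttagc
The window of the first Il15ra start (chr2:11705043-11705342) held GAAANNGAA on the minus strand, 149 bases before the start, and GGGANNTTC on the minus strand, 39 bases after it. The 4 windows of Il12a, Il12b and Ebi3 held neither set of letters. A match describes the sequence only, and binding was not measured.

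Among members, Il27 and Ebi3 had a Pearson correlation of 0.960 over the 8 libraries on the log2(normalized count + 1) scale, and Il15 and Il15ra one of 0.878. Il23a and Il27 had 0.615, and Ebi3 and Il15ra had -0.862. The value for Il27 and Ebi3 was not particular to this pair. Above a limit slightly under 0.960 lay 208 of the 10491 genes compared with Il27, and 365 of those compared with Ebi3. For Il15ra, Il23a and Il15 there were 69, 20 and 10 such genes. How many genes lay above 0.960 itself was not counted. The genes most like Il27 were Itpkb (0.996), Ripk2 (0.995), Lacc1 (0.994), Rfwd2 (0.993) and Cd47 (0.993). Ebi3 was closest to Psme3 (0.993), Pik3r5 (0.992), Cd44 (0.991), Tm9sf4 (0.989) and Arhgef3 (0.989). Il23a was closest to Mtbp (0.983), 1500015A07Rik (0.976), Taf1d (0.974), the chemokine gene Cxcl2 (0.972) and 4632427E13Rik (0.969). After Irf1, Il15ra was closest to Slc37a1 (0.994), Trim26 (0.991), Polk (0.986) and Rpap2 (0.983). Il15 was closest to Brf1 (0.973), Orai2 (0.970), Fanca (0.968), Ccdc116 (0.965) and Ccdc159 (0.964), of which Brf1 itself ranged from 5056 to 5466 normalized counts. These lists depend on the measure, since of the 5 genes nearest to Il27 none was among the 5 nearest by normalized counts or by Spearman's coefficient. For Il15 and Il15ra none of the 5 was among the 5 nearest by Spearman's coefficient.

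The list of 8 receptor chains holds those of these cytokines and Il2ra, the alpha chain of the related IL2 receptor. Il2ra was called higher at 60 min at a ratio of 2.27 (1.57 to 3.32) and at 120 min at 2.78 (1.96 to 4.01). Il12rb1, the chain shared by the receptors of IL12 and IL23, was called lower at 60 min at 0.554 (0.470 to 0.650) and again at 75 and 90 min, and stood at 0.693 at 120 min (0.599 to 0.802), not called. Il12rb2, Il27ra, Il6st and Il2rg were not called at 60 or 120 min. Il23r had 2 counts in all 8 libraries together and Il2rb, which signals for IL15, at most 2 counts in a library. The median log2 ratio of the 6 chains with enough counts was -0.0318 at 120 min, beside -0.0079 for all genes. In the JAK and STAT list of 9 genes, Jak2 was called higher at 120 min at 1.90 (1.83 to 1.97), Stat4, which transmits IL12 signals, was at 0 counts in every library, and the other 7 were not called at 60 or 120 min. Of the 5 cytokines that share the common gamma chain with IL15 (Il2, Il4, Il7, Il9 and Il21), none was called at 60 or 120 min. Only 1 of them, Il7, had 10 or more counts over the 8 libraries, so the others could hardly be called. Il4 and Il9 were at 0 in all libraries, and Il2 had 4 counts at 120 min alone. Beside all of these lists, 3.14% of genes with a count were called higher and 2.16% lower at 60 min. At 120 min the shares were 7.05% and 6.18%.

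The list of 14 transcription regulators known to act on these cytokine genes was chosen with earlier results of these data known. Its counts and medians therefore describe the list and do not test it. At 60 min 6 of the 14 were called higher and none lower, where 3.14% of all genes with a count were called higher and 2.16% lower. At 120 min 7 were called higher and 2 lower, beside 7.05% and 6.18% of all genes. Over the genes with a count in both libraries, the median log2 ratio of the list was 0.471 at 60 min and 0.799 at 120 min, beside 0.00012 and -0.0079 for all genes. Rel, the NF-kB subunit c-Rel, was 4.49-fold higher at 60 min and 12.7-fold higher at 120 min (11.8 to 13.6). Nfkbiz, which encodes the atypical inhibitor IkB zeta, was 159.3-fold higher at 60 min and 111.8-fold higher at 120 min, and Atf3, a repressor of cytokine genes, 10.9-fold and 5.91-fold. Rela was 2.39-fold and 2.20-fold higher, Cebpb 1.66-fold and 1.74-fold and Bcl6 2.86-fold and 2.84-fold, while Nfkb1 was not called at 60 min and was 2.49-fold higher at 120 min. The 2 genes called lower at 120 min were Irf1 and Irf8 (0.556, 0.540 to 0.572). Irf3, Irf5 and Spi1 were not called at 60 or 120 min, Nfil3 was called higher at 75 and 90 min, and Batf3 had at most 2 counts in a library.

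**Figure D5:**
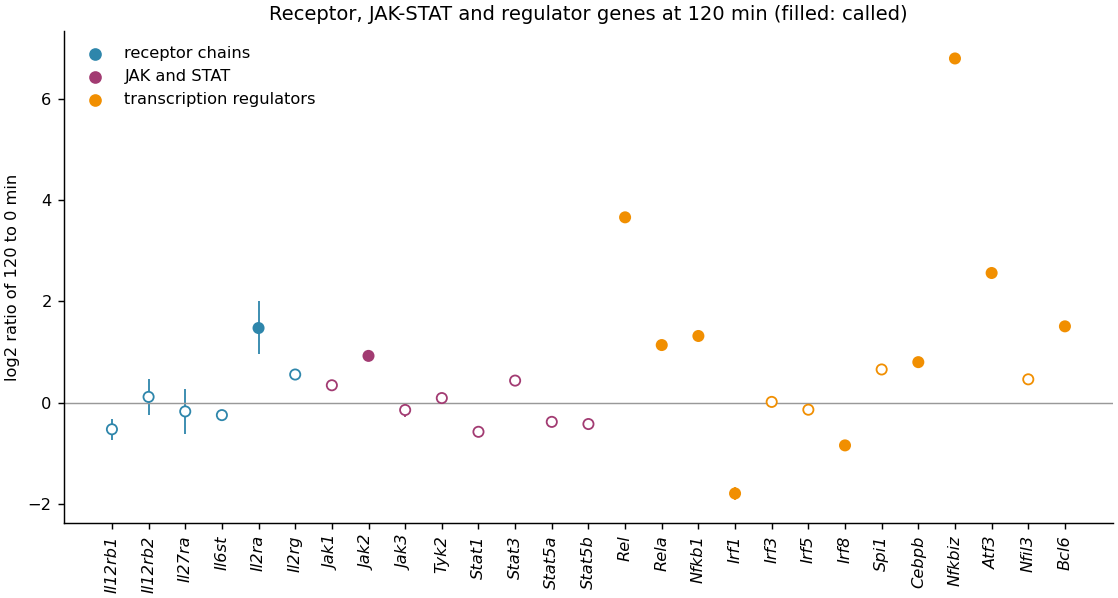
Log2 ratio of the 120 min to the 0 min library (y axis) for the receptor chains, JAK and STAT genes and transcription regulators, without Il23r, Il2rb, Stat4 and Batf3, which had few or no counts, and with exact conditional binomial 95% intervals and filled points where the pair was called. Rel (12.7-fold) and Nfkbiz (111.8-fold) stand highest and Irf1 (0.288) lowest.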

How the data were processed

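The authors deposited 1 table of raw read counts per gene symbol for 8 libraries, named by time point. Per the paper's methods, 58-base reads from rRNA-depleted libraries were mapped with Bowtie (version not given in the sources used here) to RefSeq transcripts of mm10, with reads shared between gene symbols left out. The submitters' processing notes name CASAVA 1.8.2 and DESeq 1.10.1.

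Size factors, a blind dispersion trend over the 8 libraries (0.0287 + 0.853/mean) and exact negative binomial tests of the 28 pairs of libraries were computed in Python 3.11.15 (numpy 2.4.6, scipy 1.17.1) after the DESeq settings of the study. Genes with at least 1 count were tested. With 1 library per time point, edgeR's quasi-likelihood test could not be fitted. Rpkm used unique 58-base sequences of GENCODE vM21 transcripts matched by RefSeq accession (Il12b by symbol). For a count of 0, the upper limit was set at 3 counts. Named were the 7 genes, the lists of receptors, JAK and STAT genes, gamma chain cytokines and regulators, and for each member averaging 10 or more normalized counts the 5 genes with the highest Pearson correlation. The members and lists were chosen with earlier results of these data known. Spi1 and Adgre1 are listed under the older symbols Sfpi1 and Emr1. The code was tested on simulated data. Alternatives used edgeR 4.0.16 and DESeq2 1.42.0 in R 4.3.3. Protein sequences were not used here.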

Additional observations from a re-analysis of the deposited data

How the results depend on the processing

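Of 193 recomputed values of the 12 main results under other scales, dispersions, limits and sets of libraries, 15 changed their call or count. None reversed, but only log2 ratios could reverse, and counts of members could not. Settings that change only the dispersion, the adjustment or a limit leave a log2 ratio as it was. With 1 normalized count added, only the log2 ratio was recomputed and the main call was carried over, so it could not change. The absence of reversals is therefore no measure of robustness. With the dispersion trend of edgeR or Benjamini-Hochberg adjustment, 1 member instead of 2 was called higher at 75 min, because Il27 lost its call. At 120 min 0 members were called lower with the edgeR trend, with Benjamini-Hochberg adjustment or with a log2 limit of 1, because Il15ra (-0.98) lost its call. Ebi3 lost its call with total counts (0.81) and with Benjamini-Hochberg adjustment (1.01), which left 2 members called higher at 120 min, and Il23a lost its 30 min call with the latter. Without a p-value limit, chosen after seeing the data, 2 members were called lower at 90 min and 3 higher at 75 and at 90 min. The log2 ratio of 120 to 0 min ranged from 3.29 to 3.50 for Il23a, 4.48 to 4.68 for Il27, 0.81 to 1.01 for Ebi3, -0.65 to -0.45 for Il15 and -1.19 to -0.98 for Il15ra. Benjamini-Hochberg adjustment lowered the calls over all genes from 729 to 307 (higher, 75 min) and from 1049 to 473 (lower, 120 min), where the edgeR trend gave 689 and the log2 limit of 1 gave 657. The first maximum of Il23a moved to 120 min without the 90 min library and that of Il27 to 90 min without the 120 min library. The minimum of Il15ra moved to 75 min without the 90 min library or with total counts, and Ebi3 had no maximum without the 120 min library, with total counts or with Benjamini-Hochberg adjustment. Rpkm at 120 min over the longest transcript of the annotation was 3.67 for Il27, 13.5 for Ebi3 and 1.72 for Il15ra. No paired analysis was possible because each time point had 1 library. The 9 reads of Il23a at 0 min limit its ratios.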
